A study of Canis lupus familiaris with 15 samples.

Results

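The genes described here carry out mitosis: cyclins, mitotic kinases, spindle checkpoint proteins, kinetochore subunits, spindle and cytokinesis proteins, condensins and the transcription factor FOXM1. The list held 45 genes, chosen by name, and kinesins were kept out of it. A platform annotation gave 40 of them at least 1 probe set of a canine expression array, and all 40 reached the filter of a log2 intensity of at least 4 on 3 or more of 15 arrays, out of 10287 named genes that did. CCNB1, BUB1, MAD2L1, CENPE and MKI67 had no probe set under their symbol and are not analysed here. Each gene is represented by its brightest probe set over the 15 arrays.

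MDCK cells, an established epithelial line from dog kidney, had been on porous Transwell filters for 7 days in medium with fetal bovine serum. The HGF + UO group (n = 3) received hepatocyte growth factor (HGF) with the compound the labels spell UO126 at 10 uM. The HGF + PD group (n = 4) received HGF with the compound spelled PD09859 at 50 uM. The HGF group (n = 4) received the growth factor alone, at 100 ng/ml for 24 h as in the inhibitor groups, and the Control group (n = 4) received neither. The question of the series was which genes HGF regulates through the MAPK pathway, and its title calls both compounds MAPK inhibitors. None of the 15 arrays had a compound without HGF, and the sources used here name no vehicle. The labels call the arrays biological replicates of 1 cell line without naming separate cultures, so the p-values rest on array-to-array spread, which may be technical.

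Mitosis is driven by cyclin-dependent kinase 1 bound to A- and B-type cyclins and ends when the anaphase-promoting complex marks cyclins and securin for destruction. The spindle checkpoint holds that complex back until the kinetochores of all chromosomes are attached to microtubules. Transcripts of many of these genes are low in resting cells and peak in G2 and mitosis, under FOXM1 and the MuvB complexes. Each array measured a whole culture, so more cells in mitosis and more RNA per cell cannot be told apart.

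Epithelial markers were present on the arrays, and the groups differed in measures of RNA quality. All 9 kidney epithelial markers were measured. Against Control, 8 were lower and 0 higher in HGF + UO, and 8 were lower and 0 higher in HGF + PD. In HGF, 5 were lower and 2 higher. Of all probe sets, 10.3% were lower and 11.9% higher in HGF + UO, and 14.3% and 20.2% in HGF + PD. In HGF, 29.2% were lower and 26.3% higher, so the 22.2% of markers higher there was not above the background. CDH16, a cadherin of kidney tubules, fell relative to Control in all treated groups: it fell by 1.03 in HGF + UO, fell by 1.53 in HGF + PD and fell by 3.00 in HGF. The falls of CDH16 in HGF + PD and in HGF were the largest of the 9 markers, so it does not stand for the list. In HGF against Control the median difference of the 9 was -0.48, and the highest was a rise of 1.04. The part of these marker differences in the results for the mitosis genes was not tested. Of 17 markers of fibroblasts, endothelium and leukocytes 8 were measured, and 0 rose and 2 fell with HGF. Of all probe sets 26.3% rose and 29.2% fell there, so neither count was above the background. Their summed log2 intensity ran from 46.33 to 47.18 in HGF + UO, 46.02 to 46.62 in HGF + PD, 46.24 to 47.80 in HGF and 46.92 to 47.55 in Control. The log2 intensity of the actin 3′ control probe set minus its 5′ probe set was 2.15 ± 0.04 in HGF + UO (SD, n = 3), 2.13 ± 0.07 in HGF + PD, 1.48 ± 0.08 in HGF and 2.24 ± 0.05 in Control (n = 4 each). With a second 5′ probe set of actin HGF was again lowest, at 4.66 ± 0.03 in HGF + UO, 4.51 ± 0.09 in HGF + PD, 3.94 ± 0.07 in HGF and 4.43 ± 0.12 in Control. For GAPDH the difference was 2.24 ± 0.03 in HGF + UO, 1.98 ± 0.07 in HGF + PD, 1.95 ± 0.03 in HGF and 2.03 ± 0.04 in Control. Every HGF + UO array, at 2.20 or more, lay above every other array, at 2.08 or less.

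The mitosis genes were higher with HGF than in Control, and most stayed above Control when an inhibitor was present. In HGF against Control, 37 of the 40 rose and 0 fell, where 26.3% of all probe sets tested rose and 29.2% fell. The median difference was 2.00 on the log2 scale, against -0.02 over all probe sets. The 37 rises ran from 0.56 for CENPA to 4.43 for CEP55, with 34 of at least 1 and 21 of at least 2. In HGF + PD against Control, 38 rose and 0 fell (20.2% and 14.3% of all probe sets), with a median of 2.06. In HGF + UO against Control, 35 rose and 0 fell (11.9% and 10.3% of all probe sets), with a median of 1.53. These 3 comparisons share the Control arrays.

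Set against HGF alone, the HGF + UO group had mostly lower mitosis genes and the HGF + PD group had genes on both sides. In HGF + UO against HGF, 22 genes fell and 1 rose, where 25.2% of all probe sets fell and 27.2% rose, and the median was -0.47 against 0.00 over all probe sets. In HGF + PD against HGF, 8 fell and 10 rose, where 25.1% and 30.3% of all probe sets did, so these shares, 20% and 25%, were near or below the background. The median there was -0.01. Both comparisons share the HGF arrays.

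**Figure D1:**
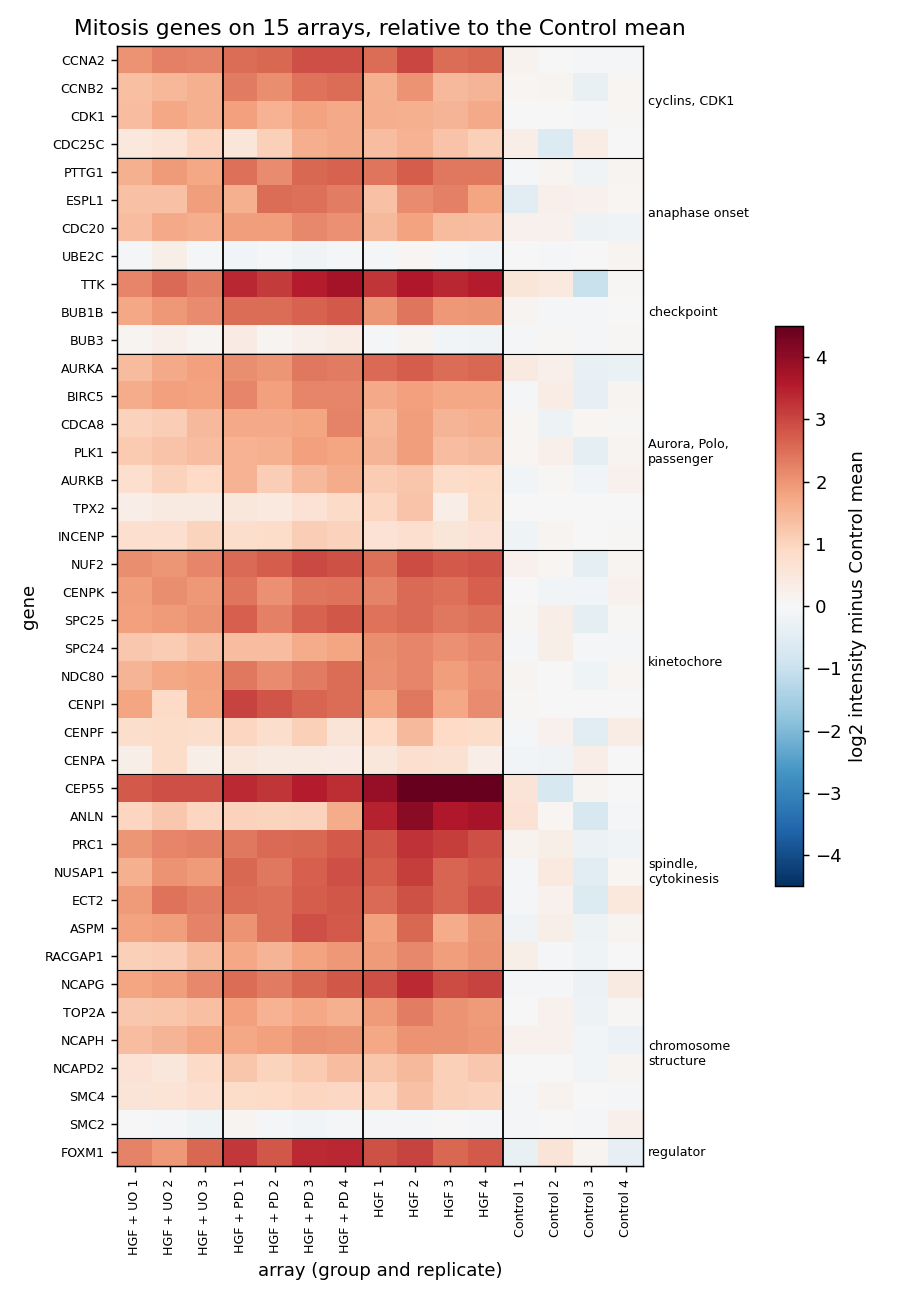
Log2 intensity of the 40 measured mitosis genes on the 15 arrays, each gene shown as its difference from its own mean over the Control arrays (colour scale in log2 units), with genes in rows by role and arrays in columns by group. The treated columns are above the Control mean for most genes, and UBE2C, BUB3 and SMC2 stay near 0 in every column.

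Averaged over the 40 genes, each array gave one level. These were 8.46, 8.59 and 8.67 in HGF + UO, 8.98, 8.90, 9.13 and 9.18 in HGF + PD, 8.98, 9.31, 9.00 and 9.05 in HGF, and 7.21, 7.24, 6.98 and 7.21 in Control. The Control arrays lay below all others, the HGF + UO arrays lay below the HGF + PD and HGF arrays, and the last 2 groups overlapped. HGF replicate 2 was the highest of its group for 34 of the 40 genes, and HGF + UO replicate 1 was the lowest of its group for 33. Control replicate 3 was the lowest of its group for 26. Without those 3 arrays, a choice made after seeing the data, 37 of 40 still rose and 0 fell in HGF against Control. In HGF + UO against HGF 16 fell and 1 rose, and in HGF + PD against HGF 6 fell and 11 rose. Of 24904 probe sets, 12461, 11615 and 12852 passed in either direction in these comparisons. The actin measure given above was lowest in HGF and the GAPDH measure highest in HGF + UO, and their part in these counts was not tested.

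All 4 measured genes of cyclins, their kinase CDK1 and its activating phosphatase rose with HGF, where 26.3% of all probe sets rose. CCNA2 encodes cyclin A2, which acts in S phase and early mitosis. It was at 8.98, 9.20 and 9.19 in HGF + UO, 9.46, 9.52, 9.84 and 9.84 in HGF + PD, 9.45, 9.96, 9.46 and 9.52 in HGF, and 7.09, 6.95, 6.87 and 6.87 in Control. All treated arrays lay above Control, HGF + UO lay below HGF, and HGF + PD overlapped HGF. The rise with HGF was 2.65 ± 0.12 (SE of the limma fit, 6.29-fold, adjusted p = 1.84e-10), and HGF + UO was lower than HGF by a log2 difference of -0.48 ± 0.13 (adjusted p = 0.00674). The difference between HGF + PD and HGF was 0.07, with a 95% interval from -0.20 to 0.33.

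CCNB2 encodes cyclin B2, a partner of CDK1. Its log2 intensity was 9.91, 10.06 and 10.15 in HGF + UO, 10.90, 10.64, 11.01 and 11.08 in HGF + PD, 10.15, 10.60, 10.03 and 10.08 in HGF, and 8.66, 8.69, 8.24 and 8.66 in Control. The HGF + PD arrays were the highest and did not overlap HGF, while HGF + UO overlapped HGF. CCNB2 rose by 1.65 ± 0.14 with HGF (adjusted p = 1.05e-07) and was a further 0.69 ± 0.14 higher in HGF + PD than in HGF (adjusted p = 0.000558). In HGF + UO against HGF it differed by -0.18 (95% interval -0.50 to 0.14). CDK1, the kinase that drives entry into mitosis, rose by 1.61 ± 0.08 with HGF, and neither inhibitor group passed against HGF (0.12 for HGF + PD and -0.04 for HGF + UO). Both other CDK1 probe sets differed by -0.42 in HGF + UO against HGF and passed (adjusted p = 0.00672 and 0.0057). CDC25C, a phosphatase that activates CDK1, rose by 1.31 ± 0.25 with HGF, and in HGF + UO its difference from Control, 0.68, did not pass (adjusted p = 0.0911).

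Among genes of the anaphase-promoting complex and sister separation, 3 of 4 rose with HGF, where 26.3% of all probe sets rose. PTTG1 encodes securin, the inhibitor of separase. It was at 9.92, 10.24 and 10.09 in HGF + UO, 10.81, 10.46, 10.93 and 10.98 in HGF + PD, 10.74, 11.07, 10.70 and 10.72 in HGF, and 8.26, 8.45, 8.19 and 8.45 in Control. HGF + UO fell between Control and HGF without overlap, and HGF + PD overlapped HGF. The HGF difference was 2.47 ± 0.12 (adjusted p = 3.31e-10) and that of HGF + UO against HGF -0.72 ± 0.13 (adjusted p = 0.000253).

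CDC20, the activator of the complex that the checkpoint inhibits, was at 10.20, 10.49 and 10.43 in HGF + UO, 10.69, 10.69, 10.96 and 10.87 in HGF + PD, 10.26, 10.62, 10.24 and 10.20 in HGF, and 8.98, 9.00, 8.57 and 8.66 in Control. Every HGF + PD array was above every HGF array, and HGF + UO overlapped HGF. CDC20 rose by 1.53 ± 0.12 with HGF (adjusted p = 4.86e-08) and was 0.47 ± 0.12 higher in HGF + PD than in HGF (adjusted p = 0.00328). ESPL1, which encodes separase, rose by 1.88 ± 0.24 with HGF and passed against HGF in neither inhibitor group (0.34 for HGF + PD and -0.37 for HGF + UO).

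UBE2C encodes the ubiquitin-conjugating enzyme of the same complex, and its probe set did not pass in any comparison. It was at 7.76, 8.11 and 7.77 in HGF + UO, 7.74, 7.79, 7.69 and 7.79 in HGF + PD, 7.81, 7.96, 7.80 and 7.75 in HGF, and 7.85, 7.80, 7.83 and 7.97 in Control. HGF + UO and HGF overlapped every other group. HGF + PD lay just below Control without overlap, and that difference did not pass (-0.11, adjusted p = 0.309). HGF differed from Control by -0.03 (95% interval -0.20 to 0.14). Its other annotated probe sets stayed below the filter level on every array.

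**Figure D2:**
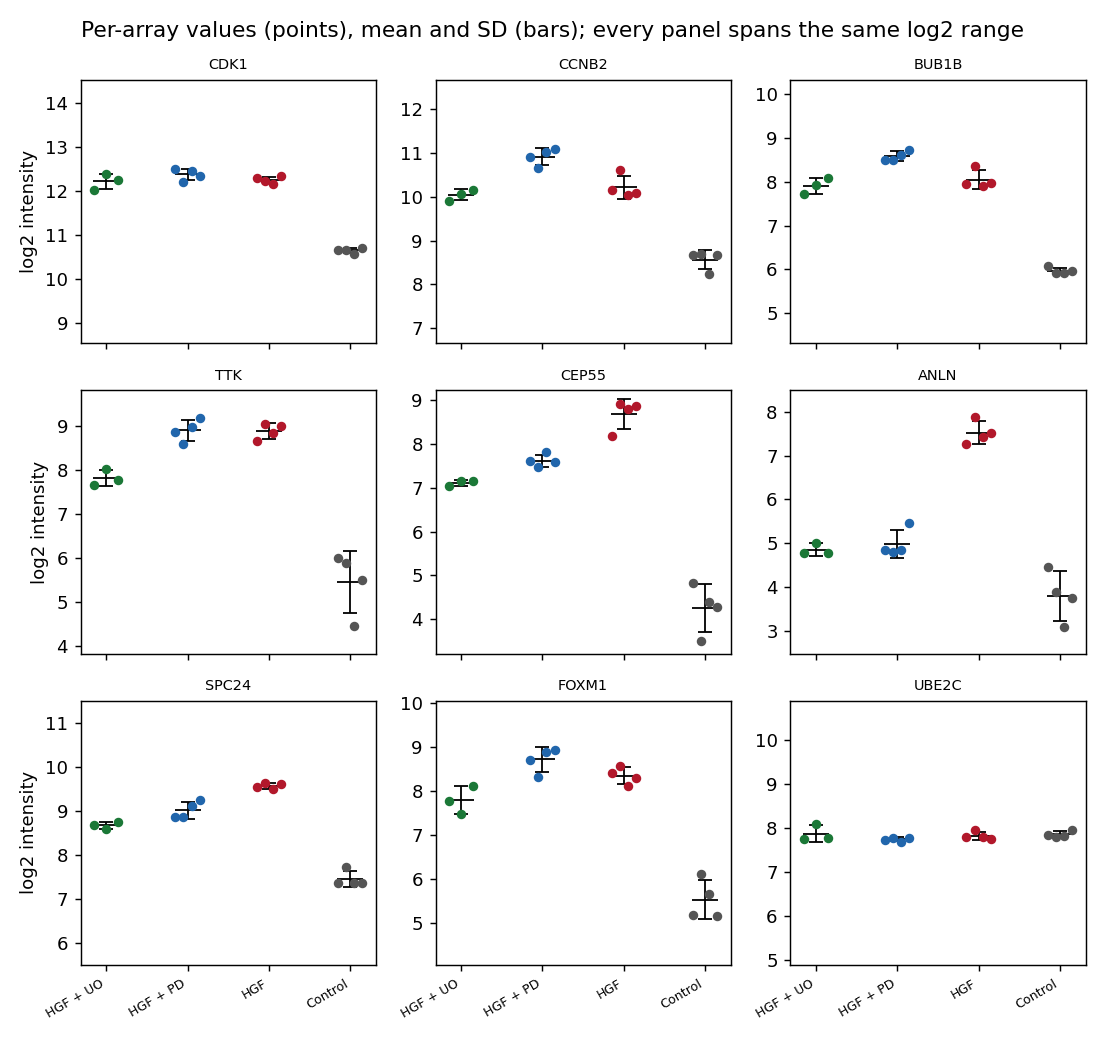
Log2 intensity of selected mitosis genes in each array (points) with the group mean and SD (bars), groups from left to right HGF + UO, HGF + PD, HGF and Control, and every panel spanning the same number of log2 units. Control points lie lowest in panels such as TTK and CEP55, and ANLN is high in HGF alone.

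Of the 3 measured spindle checkpoint genes, 2 rose with HGF, where 26.3% of all probe sets rose. BUB1B encodes BUBR1, a subunit of the checkpoint complex that binds CDC20. Its log2 intensity was 7.72, 7.92 and 8.08 in HGF + UO, 8.49, 8.49, 8.61 and 8.73 in HGF + PD, 7.94, 8.36, 7.91 and 7.96 in HGF, and 6.07, 5.91, 5.91 and 5.96 in Control. HGF + PD was above HGF on every array, and HGF + UO overlapped HGF. BUB1B rose by 2.08 ± 0.10 with HGF (adjusted p = 4.93e-10) and was 0.54 ± 0.10 higher in HGF + PD than in HGF (adjusted p = 0.000486). HGF + UO differed from HGF by -0.14 (95% interval -0.38 to 0.11).

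TTK encodes MPS1, the kinase that starts checkpoint signalling at kinetochores. It was at 7.67, 8.02 and 7.78 in HGF + UO, 8.87, 8.60, 8.98 and 9.19 in HGF + PD, 8.67, 9.06, 8.84 and 9.01 in HGF, and 6.00, 5.90, 4.45 and 5.50 in Control. HGF + UO lay between the other treated arrays and Control, and HGF + PD overlapped HGF. TTK rose by 3.43 ± 0.26 with HGF (10.8-fold, adjusted p = 4.34e-08). In HGF + UO it fell by 1.07 relative to HGF (SE 0.28, adjusted p = 0.00527), whereas the HGF + PD difference from HGF was 0.01 (95% interval -0.55 to 0.58).

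BUB3, a WD-repeat subunit shared by checkpoint complexes, did not pass in HGF against Control. Its values were 13.00, 13.12 and 13.03 in HGF + UO, 13.26, 13.02, 13.12 and 13.22 in HGF + PD, 12.85, 13.02, 12.75 and 12.74 in HGF, and 12.84, 12.93, 12.84 and 12.95 in Control. HGF overlapped Control, and of the HGF arrays only replicate 2, at 13.02, came up to the values of the inhibitor groups. The difference was -0.05 for HGF against Control (adjusted p = 0.552), 0.31 ± 0.06 for HGF + PD against HGF (adjusted p = 0.000847) and 0.21 ± 0.07 for HGF + UO against HGF (adjusted p = 0.0215). That last call was lost without HGF + UO replicate 2 (adjusted p = 0.0911) and with arrays centred on their median (adjusted p = 0.119). Its other kept probe sets gave -0.23 and 0.49 for HGF against Control, both past the threshold, so the direction for BUB3 depended on the probe set. In the same order they gave 0.33 (adjusted p = 1.19e-05) and -0.23 (adjusted p = 0.01) for HGF + UO against HGF. For HGF + PD against HGF they gave 0.44 (adjusted p = 2.48e-07) and -0.01 (adjusted p = 0.897).

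All 7 measured genes of the Aurora and Polo kinases and their partners rose with HGF, where 26.3% of all probe sets rose. AURKA, the kinase of centrosomes and spindle poles, was at 7.96, 8.23 and 8.36 in HGF + UO, 8.62, 8.52, 8.90 and 8.87 in HGF + PD, 9.08, 9.26, 9.05 and 9.10 in HGF, and 6.94, 6.75, 6.20 and 6.22 in Control. The 4 groups did not overlap, with HGF + UO below HGF + PD and both below HGF. The rise with HGF was 2.59 ± 0.16 (adjusted p = 3.64e-09), and HGF + UO was lower than HGF by a difference of -0.94 ± 0.17 (adjusted p = 0.000278). HGF + PD differed from HGF by -0.40 ± 0.16 (adjusted p = 0.0456), a call lost without HGF + PD replicate 2 (adjusted p = 0.123). A second AURKA probe set passed in the same directions, with 3.29 for HGF against Control, -1.42 for HGF + UO against HGF and -0.61 for HGF + PD against HGF.

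AURKB is the kinase of the chromosomal passenger complex, which corrects faulty attachments. It was at 10.51, 10.78 and 10.65 in HGF + UO, 11.30, 10.86, 11.19 and 11.41 in HGF + PD, 10.89, 10.97, 10.55 and 10.65 in HGF, and 9.62, 9.78, 9.63 and 9.92 in Control. HGF + PD and HGF overlapped in 1 array of HGF + PD, and HGF + UO overlapped HGF. AURKB rose by 1.03 ± 0.12 with HGF (adjusted p = 4.51e-06) and was 0.42 ± 0.12 higher in HGF + PD than in HGF (adjusted p = 0.0086). The other passenger subunits BIRC5 (survivin), INCENP and CDCA8 (borealin) rose with HGF by 1.75, 0.64 and 1.62. In HGF + PD against HGF, BIRC5 and INCENP were higher by 0.36 and 0.29 (adjusted p = 0.024 and 0.013), and CDCA8 differed by 0.23 (adjusted p = 0.156). Both calls were lost with arrays centred on their median (adjusted p = 0.0691 and 0.0711), and that of BIRC5 also without HGF + PD replicate 4 (adjusted p = 0.0624). CDCA8 was the only passenger gene of these 4 that fell in HGF + UO against HGF (-0.42, adjusted p = 0.0242), a call lost without HGF + UO replicate 1 (adjusted p = 0.104), and its difference from the other 3 was not tested. PLK1, the Polo kinase of mitotic entry and exit, rose by 1.57 ± 0.14 with HGF, and TPX2, the activator of AURKA on the spindle, by 0.84 ± 0.16. TPX2 fell in HGF + UO against HGF (-0.46, adjusted p = 0.0322), a call lost without HGF + UO replicate 1 (adjusted p = 0.0906), and HGF + UO did not pass against Control for it (0.37, adjusted p = 0.139).

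All 8 kinetochore and centromere genes rose with HGF, where 26.3% of all probe sets rose. In HGF + UO against HGF 6 of them fell, where 25.2% of all probe sets did. CENPK, part of the inner kinetochore, was at 6.99, 7.20 and 7.06 in HGF + UO, 7.51, 7.15, 7.52 and 7.55 in HGF + PD, 7.33, 7.65, 7.56 and 7.77 in HGF, and 5.13, 4.99, 4.97 and 5.30 in Control. HGF + UO lay below HGF without overlap, and HGF + PD overlapped both. It rose by 2.48 ± 0.11 with HGF (adjusted p = 1.62e-10) and differed by -0.49 ± 0.12 in HGF + UO against HGF (adjusted p = 0.0031).

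The NDC80 complex, the microtubule-binding unit of the kinetochore, is built of NDC80, NUF2, SPC24 and SPC25, all measured. SPC24 was at 8.68, 8.59 and 8.76 in HGF + UO, 8.86, 8.86, 9.12 and 9.25 in HGF + PD, 9.56, 9.65, 9.50 and 9.61 in HGF, and 7.37, 7.72, 7.37 and 7.37 in Control. Its 4 groups did not overlap. SPC24 rose by 2.12 ± 0.10 with HGF (adjusted p = 2.14e-10), and was lower than HGF by -0.90 ± 0.11 in HGF + UO (adjusted p = 4.85e-06) and by -0.56 ± 0.10 in HGF + PD (adjusted p = 0.000212). NDC80, NUF2 and SPC25 rose with HGF by 2.05, 2.74 and 2.47, and fell in HGF + UO against HGF by differences of -0.36, -0.65 and -0.54. In HGF + PD against HGF the differences for these 3 were 0.30, 0.02 and 0.14, of which only that of NDC80 passed (adjusted p = 0.0177). This NDC80 call was lost without HGF + PD replicate 4 (adjusted p = 0.0606), with arrays centred on their median (adjusted p = 0.0708) and with the median over its probe sets (0.10, adjusted p = 0.626). The fall of NDC80 in HGF + UO was lost without HGF + UO replicate 1 (adjusted p = 0.0658).

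CENPI, an inner kinetochore subunit, was at 5.01, 4.13 and 5.01 in HGF + UO, 6.26, 6.05, 5.87 and 5.75 in HGF + PD, 5.01, 5.60, 4.98 and 5.36 in HGF, and 3.28, 3.22, 3.22 and 3.22 in Control. HGF + PD lay above HGF on every array, and HGF + UO overlapped HGF. Its Control mean lay under 4, the filter level, and the size of its rise with HGF, 2.00 ± 0.19 (adjusted p = 3.60e-07), therefore rests on dim signals. HGF + PD was higher than HGF by 0.75 ± 0.19 (adjusted p = 0.00341), and the fall in HGF + UO (-0.52, adjusted p = 0.0415) was lost without HGF + UO replicate 2 (-0.23, adjusted p = 0.267). CENPF, a large coiled-coil protein of the outer kinetochore, rose by 1.02 ± 0.17 with HGF. CENPA, the centromeric histone H3 variant, had the smallest rise, 0.56 ± 0.14 (adjusted p = 0.00287), while its second probe set gave 2.70. Neither CENPA nor CENPF passed in either inhibitor group against HGF.

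**Figure D3:**
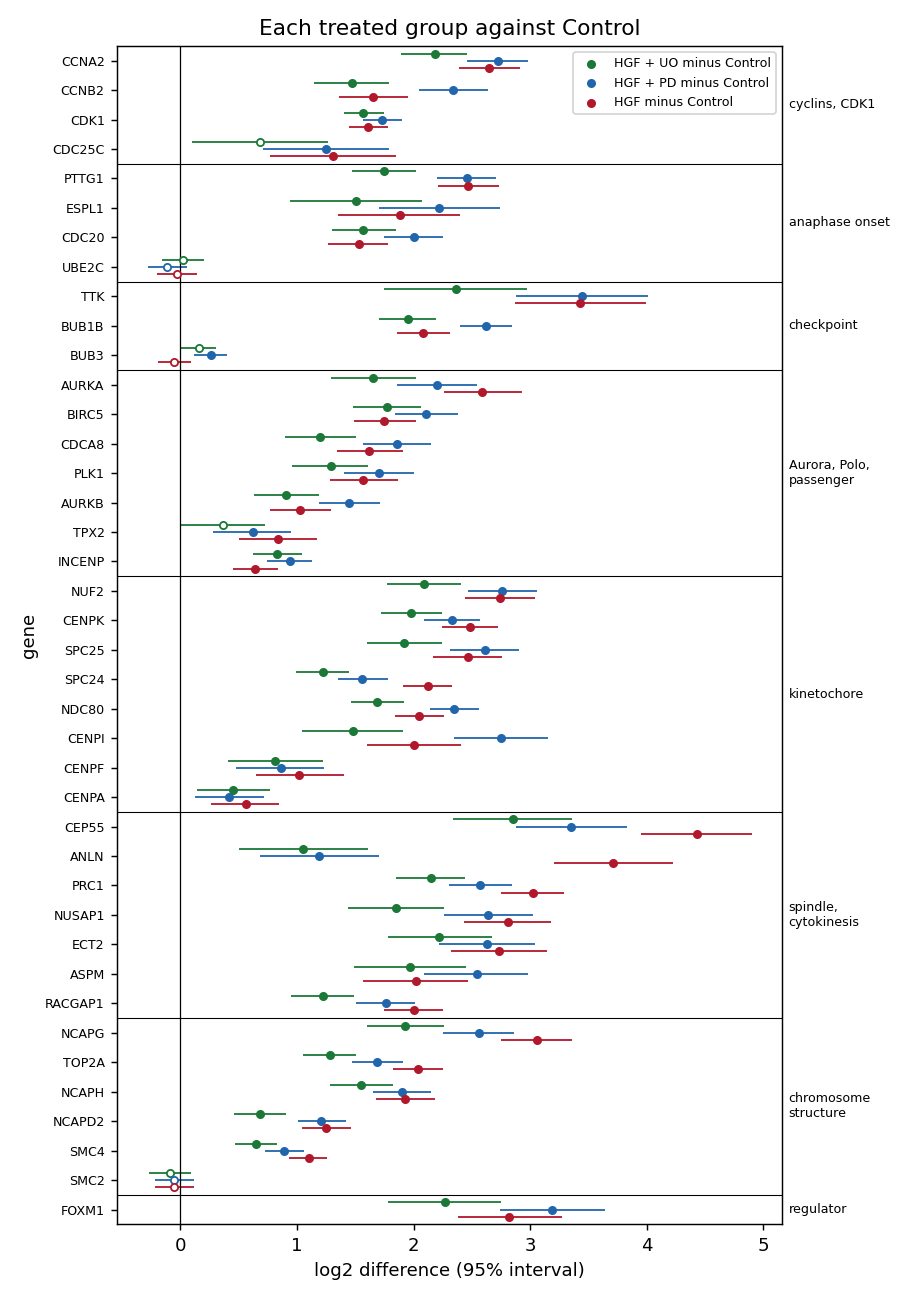
Log2 difference from Control of each mitosis gene in HGF + UO, HGF + PD and HGF, with 95% intervals of the limma fit (open circles did not pass). Points lie right of 0 for nearly all genes, and UBE2C, BUB3 and SMC2 lie near 0.

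The 7 spindle and cytokinesis genes all rose with HGF, where 26.3% of all probe sets rose. In HGF + UO against HGF 5 of them fell, where 25.2% of all probe sets did. PRC1, which bundles antiparallel microtubules of the central spindle, was at 8.14, 8.34 and 8.41 in HGF + UO, 8.54, 8.69, 8.74 and 8.92 in HGF + PD, 8.99, 9.39, 9.25 and 9.06 in HGF, and 6.30, 6.42, 5.89 and 6.00 in Control. The 4 groups did not overlap. The differences were 3.02 ± 0.13 for HGF against Control (8.11-fold, adjusted p = 7.40e-11), -0.87 ± 0.14 for HGF + UO against HGF (adjusted p = 7.57e-05) and -0.45 ± 0.13 for HGF + PD against HGF (adjusted p = 0.00723).

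ANLN encodes anillin, the scaffold of the contractile ring, and differed most between HGF and the inhibitor groups among the 40. It was at 4.78, 5.02 and 4.78 in HGF + UO, 4.84, 4.81, 4.84 and 5.47 in HGF + PD, 7.26, 7.88, 7.42 and 7.51 in HGF, and 4.47, 3.90, 3.09 and 3.75 in Control. The HGF arrays stood far above the rest, and both inhibitor groups lay above Control and overlapped each other. Against Control, ANLN was higher by 1.05 ± 0.26 in HGF + UO (adjusted p = 0.00857) and by 1.19 ± 0.24 in HGF + PD (adjusted p = 0.0014). ANLN rose by 3.71 ± 0.24 with HGF (13.1-fold, adjusted p = 6.82e-09). It differed by -2.66 ± 0.26 in HGF + UO against HGF (6.31-fold lower, adjusted p = 6.40e-07) and by -2.52 ± 0.24 in HGF + PD against HGF (5.75-fold lower, adjusted p = 4.22e-07). Its Control mean of 3.80 lay below the filter level. The other ANLN probe set passed in the same directions with smaller differences, 0.54 for HGF against Control, -0.48 for HGF + UO against HGF and -0.63 for HGF + PD against HGF.

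CEP55, which recruits the machinery that severs daughter cells, had the widest rise. Its log2 intensity was 7.03, 7.14 and 7.16 in HGF + UO, 7.60, 7.47, 7.80 and 7.58 in HGF + PD, 8.18, 8.91, 8.80 and 8.85 in HGF, and 4.82, 3.52, 4.39 and 4.29 in Control. None of the groups overlapped. CEP55 rose by 4.43 ± 0.22 with HGF (21.5-fold, adjusted p = 4.50e-10), and fell by 1.57 in HGF + UO (SE 0.24, adjusted p = 5.64e-05) and by 1.07 in HGF + PD (SE 0.22, adjusted p = 0.000769), each against HGF. Its Control mean was 4.26, close to the filter level.

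NUSAP1, a microtubule-bundling protein, rose by 2.81 ± 0.18 with HGF and RACGAP1, a subunit of centralspindlin, by 2.00 ± 0.12. In HGF + UO against HGF they fell by differences of -0.96 and -0.79 (adjusted p = 0.000613 and 9.01e-05), and in HGF + PD they differed by -0.17 and -0.24 without passing. ECT2, the exchange factor that activates RhoA at the cleavage site, rose by 2.73 ± 0.19 with HGF and differed by -0.51 in HGF + UO against HGF (adjusted p = 0.0513). ASPM, a spindle pole protein, rose by 2.02 ± 0.21 with HGF and was 0.52 higher in HGF + PD than in HGF (adjusted p = 0.0482), a call lost when only both groups were fitted (adjusted p = 0.102) and without HGF + PD replicate 3 (adjusted p = 0.145).

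**Figure D4:**
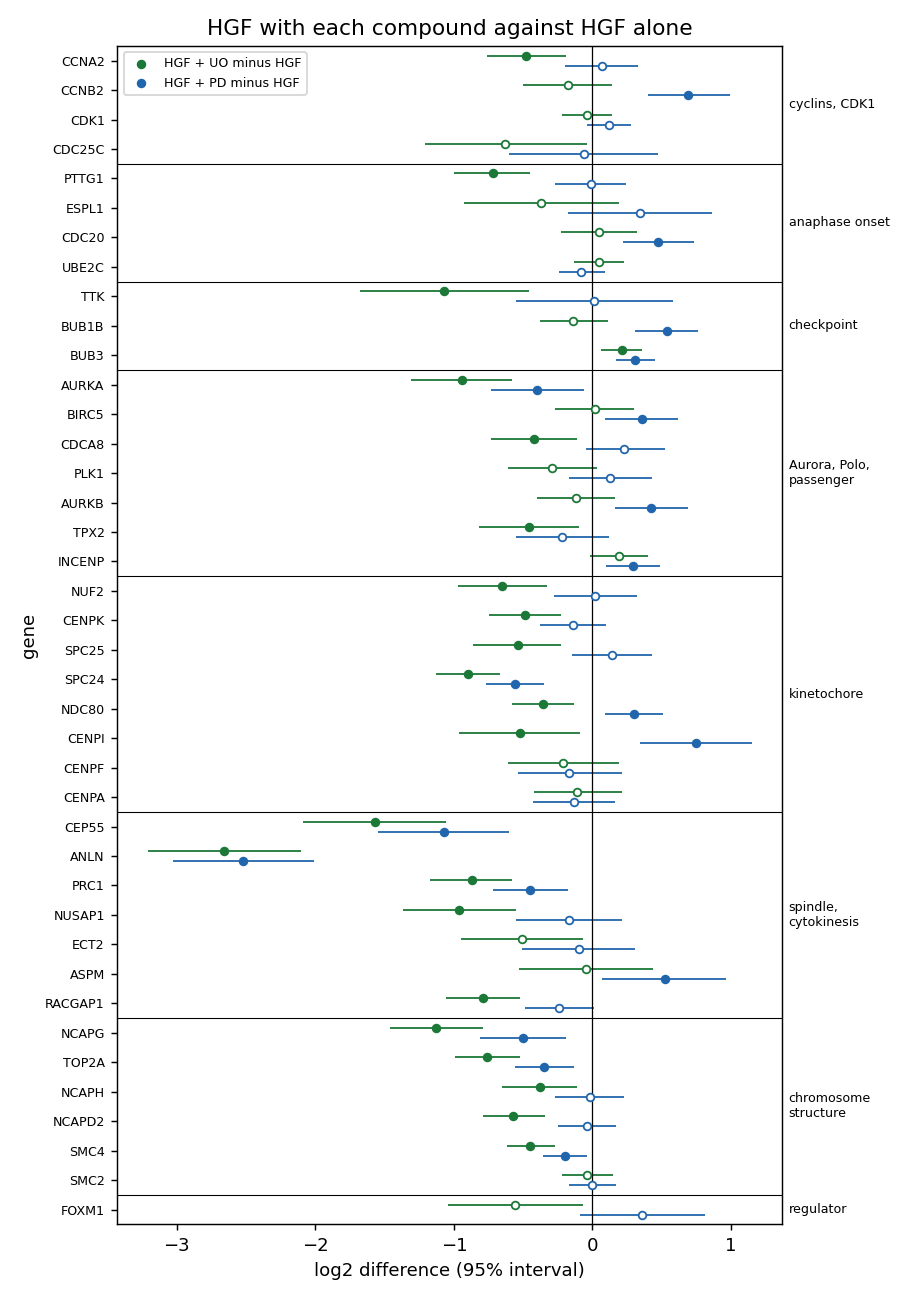
Log2 difference from HGF of each mitosis gene in HGF + UO and HGF + PD, with 95% intervals of the limma fit (open circles did not pass). Most HGF + UO points lie left of 0, the HGF + PD points lie on both sides, and ANLN is far to the left in both groups.

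Of the 6 measured genes of chromosome structure, 5 rose with HGF, where 26.3% of all probe sets rose. In HGF + UO against HGF 5 fell, where 25.2% of all probe sets did. NCAPG, a subunit of condensin I, was at 9.35, 9.45 and 9.73 in HGF + UO, 10.09, 9.92, 10.17 and 10.36 in HGF + PD, 10.48, 10.93, 10.52 and 10.62 in HGF, and 7.48, 7.53, 7.33 and 7.98 in Control. The groups did not overlap, with HGF + UO below HGF + PD and both below HGF. The differences were 3.06 ± 0.14 for HGF against Control (8.32-fold, adjusted p = 2.44e-10), -1.13 ± 0.16 for HGF + UO against HGF (adjusted p = 2.26e-05) and -0.50 ± 0.14 for HGF + PD against HGF (adjusted p = 0.00829).

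TOP2A, the topoisomerase that untangles sister chromatids, was at 10.54, 10.59 and 10.70 in HGF + UO, 11.17, 10.91, 11.08 and 10.92 in HGF + PD, 11.26, 11.63, 11.34 and 11.24 in HGF, and 9.31, 9.52, 9.11 and 9.38 in Control. Its groups did not overlap either. TOP2A rose by 2.04 ± 0.10 with HGF (adjusted p = 4.14e-10). Against HGF it differed by -0.76 ± 0.11 in HGF + UO (adjusted p = 3.41e-05) and by -0.35 ± 0.10 in HGF + PD (adjusted p = 0.00887). The condensin subunits SMC4, NCAPH and NCAPD2 rose with HGF by 1.10, 1.93 and 1.25, and fell in HGF + UO against HGF by differences of -0.45, -0.38 and -0.57. In HGF + PD the 3 differences from HGF were -0.20, -0.02 and -0.04, and that of SMC4 passed (adjusted p = 0.0359). It was lost without HGF replicate 2 (adjusted p = 0.12), and the fall of NCAPH in HGF + UO was lost without HGF + UO replicate 1 (adjusted p = 0.103).

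SMC2 encodes the ATPase that pairs with SMC4 in condensin. Its probe set was at 6.26, 6.15 and 6.05 in HGF + UO, 6.36, 6.14, 6.12 and 6.14 in HGF + PD, 6.15, 6.17, 6.25 and 6.19 in HGF, and 6.14, 6.21, 6.16 and 6.46 in Control. The groups overlapped, and HGF differed from Control by -0.05 (95% interval -0.22 to 0.12). This probe set ranged over 0.41 log2 units on all arrays, and the other annotated SMC2 probe set reached at most 3.34, below the filter level. The probe sets used for SMC2 and SMC4, which form a dimer, thus differed in whether they passed. The difference between them was not tested, nor was how well the SMC2 probe set follows its transcript.

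FOXM1 is a transcription factor that binds promoters of G2 and M genes and is itself made in proliferating cells. It was at 7.78, 7.48 and 8.13 in HGF + UO, 8.72, 8.33, 8.90 and 8.94 in HGF + PD, 8.41, 8.58, 8.13 and 8.29 in HGF, and 5.19, 6.11, 5.66 and 5.17 in Control. HGF + UO lay below HGF + PD without overlap, and the values of both reached those of HGF. FOXM1 rose by 2.82 ± 0.21 with HGF (7.08-fold, adjusted p = 3.05e-08). Neither HGF + UO (-0.56, adjusted p = 0.0523) nor HGF + PD (0.36, adjusted p = 0.16) passed against HGF. A second FOXM1 probe set showed 0.14 with HGF and did not pass (adjusted p = 0.402).

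Set against each other, the inhibitor groups differed in 1 direction. In HGF + UO against HGF + PD, 17 of the 40 genes were lower and 0 higher, where 6.66% of all probe sets were lower and 2.55% higher, and the median was -0.52 against -0.00 over all probe sets. HGF + UO held 10 uM and HGF + PD 50 uM, so this compares the treatments as given and says nothing of the compounds at a matched dose. CENPI differed most (-1.27 ± 0.20, adjusted p = 0.002), followed by TTK (-1.08 ± 0.28, adjusted p = 0.0305), FOXM1 (-0.92 ± 0.23, adjusted p = 0.0226) and CCNB2 (-0.87 ± 0.15, adjusted p = 0.00297). The call of TTK was lost without HGF + UO replicate 1 (adjusted p = 0.0957) and that of FOXM1 without HGF + UO replicate 2 (adjusted p = 0.107). BUB1B and PTTG1 differed by -0.67 and -0.71 (adjusted p = 0.00274 and 0.00452). The genes that did not pass included CDC20 (-0.43, adjusted p = 0.0515) and AURKA (-0.55, adjusted p = 0.0606), and ANLN differed by -0.13 (95% interval -0.69 to 0.42). The count depended on single arrays. It was 8 without HGF + UO replicate 1 and 10 without HGF + UO replicate 2. It was 9 without HGF + PD replicate 4 and 21 without HGF + PD replicate 2. The direction was not particular to the 40 genes. Of 47 DNA replication genes, 22 were lower (46.8%) and 0 higher. Of 83 other mitosis genes, 23 were lower (27.7%) and 0 higher, and of 10 mitotic kinesins 3 were lower and 0 higher.

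Where a gene had several probe sets, they did not always give the same call. Of the 20 mitosis genes with more than 1 probe set past the filter, all probe sets gave the same call for 14 in HGF against Control, 13 in HGF + UO against HGF and 11 in HGF + PD against HGF. One of 5 NCAPG probe sets ran opposite to the other 4, with -0.99 for HGF against Control, 1.05 for HGF + UO against HGF and 1.19 for HGF + PD against HGF. Second probe sets of PRC1 and SPC24 differed by 0.09 and -0.01 in HGF against Control and did not pass. INCENP had 3 further probe sets, with HGF differences of -0.01, 0.37 and 0.10, none past the threshold. For CENPF, a second probe set rose by 1.14 with HGF and was 0.72 higher in HGF + PD than in HGF (adjusted p = 0.00805), where the brighter one was not (-0.17). Other probe sets of NDC80 gave 0.10 and 0.09 for HGF + PD against HGF, of TOP2A -0.12 and of SMC4 0.16, none past the threshold.

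**Figure D5:**
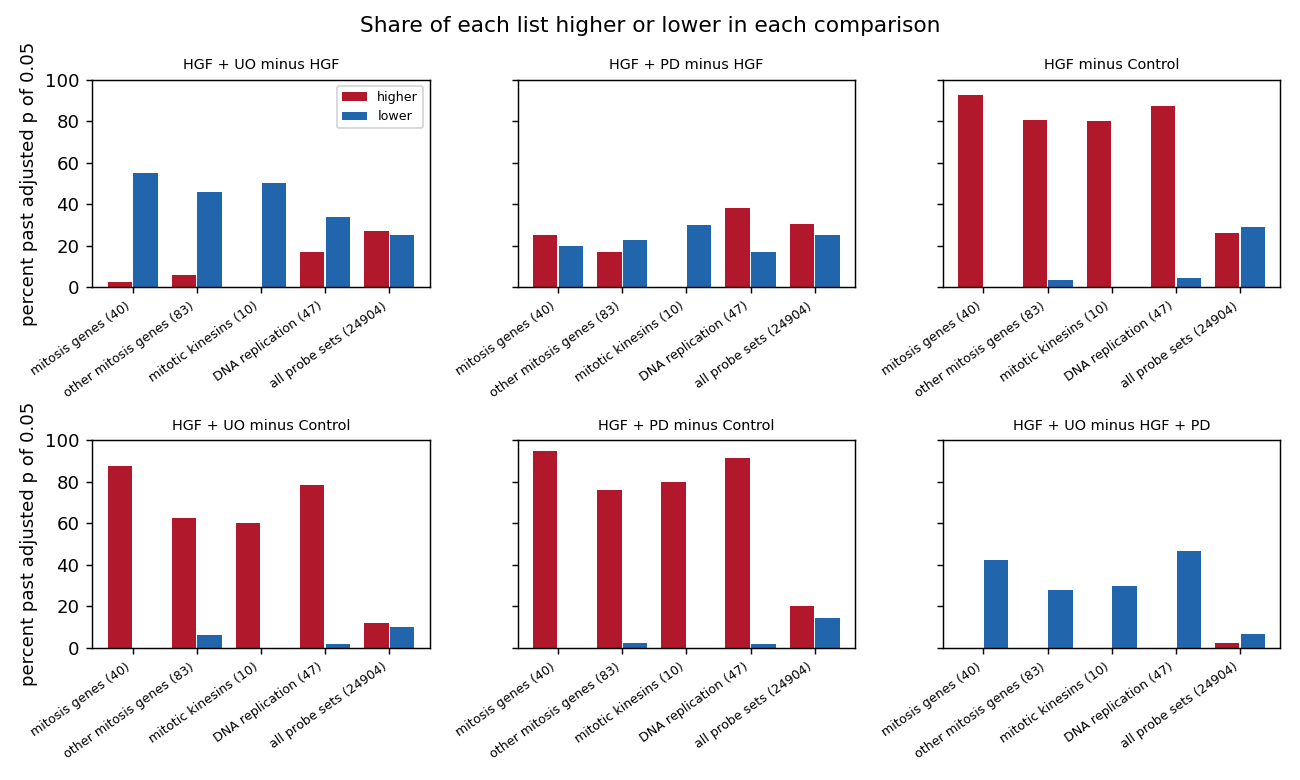
Share of measured genes that were higher or lower in each comparison, for the mitosis genes, other gene lists of the cell cycle and all probe sets tested. The mitosis genes stand at 92.5% higher in HGF against Control, where all probe sets stand at 26.3%.

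Further genes of mitosis and of DNA replication were higher with HGF as well. Of 83 measured mitosis genes outside the 40 and the kinesins, 67 rose and 3 fell with HGF (median 0.77). Of all probe sets, 26.3% rose and 29.2% fell with HGF. In HGF + UO against HGF 38 of these genes fell and 5 rose, and in HGF + PD against HGF 19 fell and 14 rose. The shares in HGF + UO were 45.8% lower and 6.02% higher, where all probe sets stood at 25.2% and 27.2%. Those in HGF + PD, 22.9% lower and 16.9% higher, were near or below the 25.1% and 30.3% of all probe sets. NDE1, a dynein regulator of centrosomes, rose by 1.91 with HGF and differed by -1.68 in HGF + UO and -1.01 in HGF + PD, each against HGF. NCAPG2, a condensin II subunit, rose by 3.40 and CENPP, an inner kinetochore protein, by 1.58. CDC25B, a phosphatase that activates CDK1 and is named here after its values were seen, averaged 4.39 ± 0.16 in HGF + UO (SD, n = 3), 4.29 ± 0.30 in HGF + PD, 8.80 ± 0.42 in HGF and 4.71 ± 0.23 in Control (n = 4 each). It rose by 4.09 ± 0.20 with HGF, and both inhibitor groups were near Control, with differences from Control of -0.32 and -0.43 that did not pass.

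Of 10 measured mitotic kinesins, 8 rose and 0 fell with HGF, where 26.3% and 29.2% of all probe sets did. Against HGF, 5 fell in HGF + UO and 3 in HGF + PD. The 3 of 10 in HGF + PD, 30%, were near the 25.1% of all probe sets that fell there, and 25.2% of all probe sets fell in HGF + UO. KIF23, the kinesin of centralspindlin, rose by 2.90, KIF22, a chromosome-arm motor, by 2.26 and KIF11, which separates the spindle poles, by 2.22. Among 47 DNA replication genes 41 rose and 2 fell with HGF, where 26.3% and 29.2% of all probe sets did. In HGF + UO against HGF 16 fell and 8 rose, and in HGF + PD against HGF 8 fell and 18 rose. These shares were 34% lower and 17% higher in HGF + UO, where all probe sets stood at 25.2% and 27.2%. In HGF + PD they were 17% lower and 38.3% higher, where all probe sets stood at 25.1% and 30.3%. RFC3, a clamp loader subunit, rose by 2.05, POLE2, a polymerase epsilon subunit, by 1.93, and GMNN, the licensing inhibitor geminin, by 1.24.

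Transcripts of a list of MuvB and E2F regulators, which left out FOXM1, did not move together. Whether they control the mitosis genes in these cells was not tested. Of 14 measured regulators, 6 rose and 5 fell with HGF (median 0.03), where 26.3% and 29.2% of all probe sets did. In HGF + UO against HGF, 6 rose and 4 fell, where 27.2% and 25.2% of all probe sets did. In HGF + PD against HGF, 7 rose and 3 fell, where 30.3% and 25.1% did. TFDP2, a dimer partner of E2F proteins, rose by 2.55 ± 0.07 with HGF and differed by -2.89 in HGF + UO and -2.53 in HGF + PD, each against HGF. RBL2, the p130 pocket protein of resting cells, fell by 0.82 with HGF and was higher than HGF by 0.64 in HGF + UO and 0.61 in HGF + PD. NFYB, a subunit of the factor that binds CCAAT boxes, fell by 0.73 with HGF and was higher than HGF by 0.67 in HGF + UO and 0.72 in HGF + PD.

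Calls differed in how they held. All 37 calls of HGF against Control stayed past the threshold in every alternative that measured the gene. Of the 18 calls of HGF + PD against HGF, 7 were lost in at least 1 alternative: ASPM, AURKA, BIRC5, INCENP, NDC80, SMC4 and TOP2A. Of the 23 calls of HGF + UO against HGF, 6 were lost in at least 1: BUB3, CDCA8, CENPI, NCAPH, NDC80 and TPX2. In HGF + UO against HGF + PD, 11 of 17 were lost in at least 1: AURKB, CCNA2, CDCA8, FOXM1, NCAPG, NDC80, NUF2, NUSAP1, RACGAP1, TOP2A and TTK. Other genes passed only in at least 1 alternative. BUB3 did so in HGF against Control, and ESPL1, RACGAP1 and TPX2 in HGF + PD against HGF. CDC25C, CDK1, ECT2, ESPL1 and FOXM1 did so in HGF + UO against HGF. In HGF + UO against HGF + PD these were AURKA, BIRC5, CDC20, CDK1, CENPK, CEP55, ESPL1, SMC4 and SPC24.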

How the data were processed

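RNA of MDCK cells was hybridised to 15 Affymetrix canine arrays. The deposited values are linear intensities made by the authors with GCRMA, which combines the probes of a set, subtracts background and normalises between arrays, per the submitters' processing notes; no version is given in the sources used here. Log2 was taken with no further scaling. Of 43035 probe sets, 111 controls were left out and 24904 (58% of the rest) had a log2 intensity of at least 4 on 3 or more arrays. Names came from the platform annotation: 29254 probe sets had 1 symbol, 439 several and 13231 were unlisted.

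A model with a mean per group (4 groups, all arrays) was run with limma 3.58.1 (lmFit, eBayes with a variance trend) in R 4.3.3, for 6 comparisons, with Benjamini-Hochberg adjustment over all probe sets kept and a threshold of 0.05. Every adjusted p-value comes from this fit or a named alternative of it. All groups share 1 estimate of spread. Intervals are 95% intervals of the fit. Precision is limited by how few arrays there are. Simulated data held 24904 probe sets, with a change of 0.5 on the log2 scale set in 100 and a change of 1 in 100 more. The change of 0.5 was recovered in 67% of cases for HGF against Control and 63% for HGF + PD against HGF. It was recovered in 66% for HGF + UO against HGF and 66% for HGF + UO against HGF + PD. In the real data far more probe sets passed, 13839 in HGF against Control, which makes the adjusted threshold less strict. These rates therefore do not give the power of the real comparisons. The genes and lists were chosen with earlier results of these data known, so no set test was run. Per role, values in every array are given for the gene with the lowest adjusted p in HGF against Control, HGF + PD against HGF and HGF + UO against HGF, and for genes that did not pass with HGF. CENPI, CEP55 and TOP2A were added after their values were seen. From other lists the 3 genes with the lowest adjusted p for HGF against Control are named. Alternatives changed the filter, a floor, the normalization, the probe set rule, the variance model, the groups fitted, a replicate block and each array left out. Correlations between arrays of 1 group ran from 0.9942 to 0.9980 over the probe sets kept. No threshold for near-identical arrays was set, and arrays of different groups were not compared in this way. Promoter motifs were not analysed, for want of sequences.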

Additional observations from a re-analysis of the deposited data

Results flagged for a closer look

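In 17 of 120 sets of a gene and a group of 4 arrays, 1 array stood far from the others of its group (a Dixon gap test at 95%, which chance passes in about 1 in 20). HGF replicate 2 was such an array 5 times, always high: CCNA2 at 9.96 (others up to 9.52), CDC20 at 10.62 (10.26), PTTG1 at 11.07 (10.74), BUB1B at 8.36 (7.96) and CENPF at 9.45 (8.88). HGF replicate 1 was low for CEP55, at 8.18.

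In HGF + PD, replicate 4 was high for CDCA8, at 7.86, and for ANLN, at 5.47. Replicate 2 was low for BIRC5, at 9.92, and for CENPK, at 7.15, and replicate 1 was high for SMC2, at 6.36.

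In Control, replicate 3 was low for CCNB2, at 8.24, and for NUF2, at 6.48. Replicate 1 was low for ESPL1, at 3.83, and high for CENPI, at 3.28, both below the filter level. Replicate 2 was low for CDCA8, at 5.42, and high for SPC24, at 7.72. The HGF + UO group has 3 arrays and was not tested in this way.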

How the results depend on the processing

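Across 9 alternatives the number of mitosis genes that rose ran from 36 to 37 in HGF against Control, 37 to 38 in HGF + PD against Control and 34 to 36 in HGF + UO against Control. The median over the probe sets of a gene made 1 gene, BUB3, lower in HGF against Control. Centring arrays on their median left 6 genes higher in HGF + PD against HGF and 0 higher in HGF + UO against HGF. With the probe sets of a gene merged, 16701 features were tested and 9104 passed in HGF against Control, 9150 in HGF + PD against HGF, 8632 in HGF + UO against HGF and 5703 in HGF + PD against Control, fewer by construction. With only the compared groups fitted, 997 probe sets passed in HGF + UO against HGF + PD; the cause was not tested.

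Leaving out each array in turn gave 37 genes past the threshold every time and medians of 1.89 to 2.05 in HGF against Control, medians of -0.53 to -0.37 with 18 to 22 lower and 0 to 1 higher in HGF + UO against HGF, 6 to 8 lower and 7 to 10 higher in HGF + PD against HGF, and 8 to 21 lower in HGF + UO against HGF + PD, where 1208 to 2924 probe sets passed. Without HGF + UO replicate 1, HGF replicate 2 and Control replicate 3 together, chosen after seeing the data, the median was 1.87 in HGF against Control and -0.30 in HGF + UO against HGF, and 1248 probe sets and 12 of the genes passed in HGF + UO against HGF + PD.

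The replicate numbers gave no pairing that held across all groups: deviations of same-numbered arrays correlated at over 0.1 in 8 of 21 pairs (from -0.250 to 0.410). For HGF + PD and HGF the correlations were 0.41, -0.06, 0.13 and 0.14 for replicates 1 to 4, so pairing there was not settled. With the replicate number as a block, 37 genes rose in HGF against Control, 20 fell and 1 rose in HGF + UO against HGF, 7 fell and 11 rose in HGF + PD against HGF, and 16 fell in HGF + UO against HGF + PD. The numbers of arrays, 3 or 4 in a group, limit what small differences can be called. Promoter motifs were planned and not run.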
